A study of Drosophila melanogaster with 10 samples.

Results

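The genes described here encode subunits of the proteasome in Drosophila melanogaster embryos. They were chosen by name, as the genes of the deposited expression table whose name begins with Prosalpha, Prosbeta, or Pros, Rpn or Rpt followed by a digit. The rule found 41 of the 15422 genes in the table, of which 28 encode subunits of the proteasome found in all tissues and 13 are paralogs, marked in current names by a T or an R after the subunit name. Polyadenylated RNA was read from embryos at stages 15 to 16 grown at 25 °C, in 2 independent samples for each of 5 genotypes. Every genotype carried the pros-Gal4 driver. Control embryos were pros-Gal4/+ and the others were pros-Gal4/UAS- with a transgene of dacapo (dap), the fly member of the Cip/Kip family of cyclin-dependent kinase inhibitors. The transgene was wild-type dap, dap[CRL4], dap[PCNA] or dap[CDI], and the submitters describe the protein of each of the last forms, but not the wild type, as stabilized. These groups are called control, dap, dapCRL4, dapPCNA and dapCDI. The driver acts in cells that express prospero, largely in the developing nervous system, whereas the RNA came from embryos, so that fewer cells of a type and less RNA per cell cannot be told apart in any value below.

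The proteasome is the protease that degrades proteins tagged with ubiquitin in the cytosol and nucleus of all eukaryotic cells. Its 20S core is a barrel of outer alpha rings, which gate the entrance, and inner beta rings, which hold the proteolytic sites. The 19S regulatory particle caps the core: its Rpt subunits are ATPases that unfold substrates and push them into the barrel, and its Rpn subunits form the scaffold, bind ubiquitin and remove it. The complex takes up each subunit in a fixed ratio, and in flies and mammals the genes are known to be induced together when proteasome activity falls. Dacapo protein is itself a substrate of ubiquitin ligases, among them the CRL4 ligase that acts on it at the sliding clamp PCNA. Several genes stand in the table under older names, and the current name follows each in parentheses.

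Levels are given as RPKM, reads scaled to the length of the gene and the size of the library, taken back from the deposited log2 values. Estimated from the step that 1 read makes in the values, the libraries held about 16900000 to 25500000 counted reads. The dap gene itself was measured at 70.5 and 70.7 RPKM without a transgene. It stood at 85.8 and 83.4 RPKM with wild-type dap, at 81.0 and 75.7 RPKM with dap[CRL4], at 70.7 and 73.3 RPKM with dap[PCNA] and at 170.2 and 156 RPKM with dap[CDI]. The dap gene was called higher with wild-type dap (limma adjusted p = 0.0405) and with dap[CDI] (limma adjusted p = 2.28e-05). When each library was corrected for the relation of level to exon length, a correction described below, these became 0.0513 and 1.37e-05 by limma, so that the call with wild-type dap was lost. Its changes with dap[CRL4] and dap[PCNA], 0.15 and 0.03 on the log2 scale, did not pass the test, with limma adjusted p of 0.319 and 0.918. The dapCDI libraries differed from each other more than those of any other genotype, by a median of 0.171 on the log2 scale over all tested genes against 0.0909 to 0.127. Results that rest on them are given with and without each.

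All 28 canonical genes were expressed at 1 RPKM or more in every library, and over genes and libraries their levels ran from 26.1 to 133.8 RPKM. Each was represented by an estimated 572 to 5362 reads per library, with a median of 2180. In the control the median of their means was 72.9 RPKM, against 19.5 RPKM for all 10396 tested genes, and they lay between the percentiles 60.5 and 88.6 of tested genes. The control means spanned a ratio of 3.83 from the lowest gene, Prosalpha1, to the highest, Pros45 (Rpt6). Without Prosalpha1 the ratio was 2.35, from Prosbeta3 up.

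In the alpha ring the 7 genes had a median control level of 72.3 RPKM. Prosalpha7, the highest, was at 92.9 ± 1.76 RPKM (SD, n = 2), and Prosalpha1, the lowest, at 28.4 ± 3.23 RPKM (SD, n = 2). The level of Prosalpha1 cannot be assigned to 1 gene. Its values were identical in all 10 libraries to those of CG30382, now named Prosalpha1R, a near-identical copy on the same chromosome arm, and how reads that match both were counted is not given in the sources used here.

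The name rule found 6 of the 7 beta ring genes, with a median control level of 66.2 RPKM. Prosbeta7, a structural subunit, was the highest at 104 ± 1.74 RPKM (SD, n = 2), and Prosbeta3, also structural, the lowest at 46.3 ± 1.27 RPKM (SD, n = 2). The 3 proteolytic subunits were at 62.7 ± 0.443 RPKM for Prosbeta1, which cuts after acidic residues, 90.6 ± 3.14 RPKM for Prosbeta2, which cuts after basic residues, and 69.7 ± 1.91 RPKM for Prosbeta5, which cuts after hydrophobic residues (SD, n = 2 each). In the control the lowest Prosbeta2 library lay above the highest library of the other proteolytic subunits.

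The ATPase genes were the most even subgroup. The 5 Rpt genes found by name had a median of 98.4 RPKM and a ratio of 1.49 between the highest, Pros45 (Rpt6) at 109 ± 4.38 RPKM, and the lowest, Rpt4 at 73.1 ± 5.55 RPKM (SD, n = 2 each). The 10 Rpn genes had a median of 71.2 RPKM. Pros54 (Rpn10), a ubiquitin receptor, was the highest at 105 ± 3.97 RPKM, and Rpn2, the large scaffold subunit, the lowest at 47.2 ± 3.95 RPKM (SD, n = 2 each). Rpn11, the deubiquitinase that takes ubiquitin chains off substrates, was at 72.7 ± 3.86 RPKM (SD, n = 2). A further 5 subunits carry other names in the table and were described alongside, though they are no members. They are CG17331 (Prosbeta4), Tbp-1 (Rpt5), Mov34 (Rpn8), CG13349 (Rpn13, a ubiquitin receptor) and CG13779 (Sem1), and their levels over the control libraries, 73.7 to 113 RPKM, fell within the range of the canonical genes except for the higher CG13779 library.

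**Figure D1:**
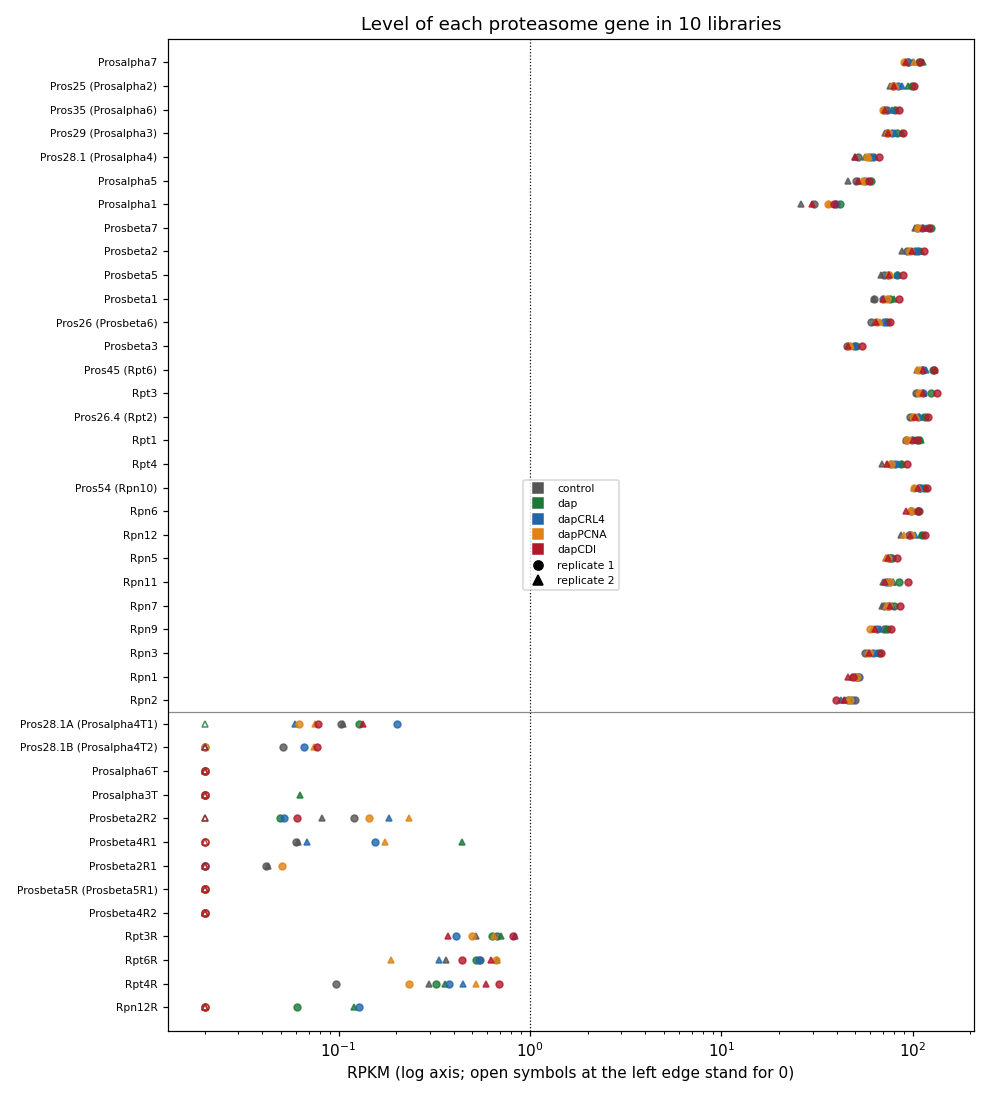
RPKM (log axis) of each of the 41 genes in each of the 10 libraries, by subgroup, with colour for genotype and symbol for replicate; open symbols at the left edge stand for 0. The 28 canonical genes lie between 26.1 and 133.8 RPKM, and the 13 paralogs below the horizontal line lie at or below 0.839 RPKM.

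The 13 paralogs were at or near 0 and none reached the level needed for testing. The products of genes of this kind that have been studied are known mainly from the male germ line, where Prosalpha6T takes the place of its counterpart during sperm formation. Prosalpha6T, Prosbeta4R2 and Prosbeta5R (Prosbeta5R1) were listed at 0 in all 10 libraries. Prosalpha3T was above 0 in 1 library, Prosbeta2R1 and Rpn12R in 3, Pros28.1B (Prosalpha4T2) in 4, Prosbeta4R1 in 6, Prosbeta2R2 in 8 and Pros28.1A (Prosalpha4T1) in 9, with an estimated 1 to 8 reads in the highest library of each. Rpt3R, Rpt4R and Rpt6R, ATPase paralogs, were above 0 in every library, at 0.0973 to 0.839 RPKM, and the highest value, of Rpt3R, stood for an estimated 27 reads. The 4 markers of the late male germ line (dj, Mst87F, can and sa) together came to 1.07 to 2.75 RPKM per library, and dj was listed at 0 in 8 of the 10.

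**Figure D2:**
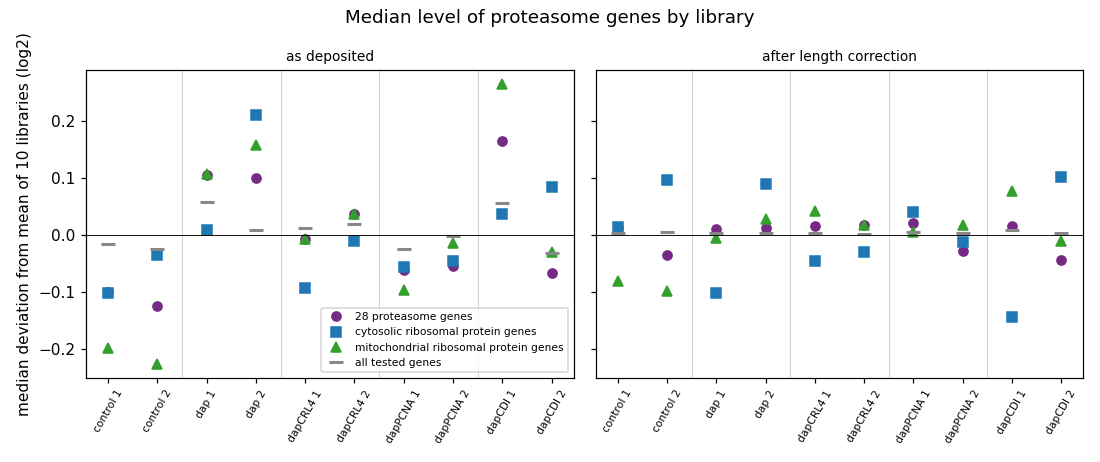
Median deviation of each gene list from its mean over the 10 libraries (log2 scale), per library, as deposited (left) and after correction for exon length (right). As deposited the proteasome median runs from -0.12 in control replicate 2 to 0.16 in dapCDI replicate 1, and after correction from -0.04 to 0.02.

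As deposited, all 28 canonical genes lay above their own mean over the 10 libraries in dap replicate 1, 25 in dap replicate 2, 24 in dapCRL4 replicate 2 and 26 in dapCDI replicate 1, where 68.3%, 51.6%, 58.5% and 59.9% of all tested genes did. By contrast 5 and 1 lay above it in the control libraries (46.5% and 44% of tested genes), 6 and 5 in dapPCNA (42.7% and 49.2%), 10 in dapCRL4 replicate 1 (55.5%) and 3 in dapCDI replicate 2 (37.4%). Corrected for exon length, the counts lay closer together, between 5 in dapCDI replicate 2 and 20 in dapCRL4 replicate 1, with 16 and 17 in the dap libraries and 15 and 6 in the control libraries. Over all tested genes with a length, the share was then 51.1% to 52.3% in every library. The median over genes as deposited was lower in both control libraries than in both dap libraries. The dapCDI replicates differed by a median of 0.241 on the log2 scale over the 28 genes, regardless of sign, and those of the other genotypes by 0.0341 to 0.0633. The SD over the 10 libraries had a median of 0.113 over these genes on the log2 scale, against 0.148 over all tested genes. It was smallest for Rpn1, at 0.0521, and largest for Prosalpha1, at 0.224.

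The first comparison, of wild-type dap with the control, asks what expression of the inhibitor did. Of the 28 tested genes, 4 were called higher and 0 lower, by limma on all 10 libraries with Benjamini-Hochberg adjusted p under 0.05, where 8.53% of all tested genes were called higher and 3.27% lower. They were 2 of 7 alpha genes, 1 of 6 beta genes, 1 of 5 Rpt genes and 0 of 10 Rpn genes. The median log2 change was 0.22 over the 28 genes and 0.06 over all tested genes. In 25 of the 28 both dap libraries lay above both control libraries, as they did in 39.4% of all tested genes, and in 0 did both lie below, as they did in 24.3%. Unadjusted p was under 0.05 for 17 genes, all higher, where 21% of tested genes were higher at that threshold.

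Prosalpha1 showed the widest difference of the 28. The control libraries gave 30.7 and 26.1 RPKM for it, the dap libraries 41.7 and 39.6 RPKM. The dap libraries were the higher ones without overlap, 1.43-fold in the means, with a log2 change of 0.52 ± 0.12 (SE; limma adjusted p = 0.0279). The identical values of CG30382 belong equally to this change.

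Prosalpha5, another subunit of the alpha ring, rose from 50.7 and 45.7 RPKM in the control libraries to 60.8 and 58.2 RPKM in the dap libraries. Its groups did not overlap, and the log2 change was 0.31 ± 0.09 (SE; limma adjusted p = 0.0486). For Prosbeta7 the control libraries gave 106 and 103 RPKM and the dap libraries 124 and 121 RPKM, again without overlap. Its log2 change was 0.23 ± 0.06 (SE; limma adjusted p = 0.0465). Prosbeta7 lies on chromosome arm 3R at 5357012 to 5358364 (minus strand, build BDGP6), with 2 annotated transcripts.

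Rpt1, an ATPase of the regulatory particle, was the most closely replicated of the called genes in the control, at 92.0 and 92.2 RPKM, against 108 and 111 RPKM in dap. Its log2 change was 0.25 ± 0.06 (SE; limma adjusted p = 0.0362). Prosalpha1, Prosalpha5 and Rpt1 all lie on chromosome arm 2R, which holds 8 of the 28 genes.

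The proteolytic subunits lay just outside the threshold, as did others such as Pros25 (Prosalpha2) and Pros45 (Rpt6), with limma adjusted p of 0.0572 and 0.0580. Prosbeta1 gave 63.02 and 62.4 RPKM in the control libraries against 75.9 and 79.5 RPKM in the dap libraries. Its log2 change was 0.31 (95% interval 0.11 to 0.51; limma adjusted p = 0.0512). For Prosbeta2 the change was 0.27 and for Prosbeta5 0.26, with limma adjusted p of 0.0558 and 0.0814. As deposited, all 3 had both dap libraries above both control libraries. After the correction for length the changes of Prosbeta1, Prosbeta2 and Prosbeta5 were 0.06, 0.04 and 0.05 (limma adjusted p = 0.604, 0.662 and 0.650). Of the ubiquitin-handling subunits, Pros54 (Rpn10) changed by 0.15 and Rpn11 by 0.17 on the log2 scale, with limma adjusted p of 0.164 and 0.333, and by -0.02 and -0.03 after the correction for length.

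No such difference was seen for Rpn1, Rpn2 and Rpn6. Rpn1 gave 52.1 and 49.9 RPKM in the control libraries against 50.8 and 50.1 RPKM in the dap libraries, and the 95% interval of its log2 change ran from -0.17 to 0.14. Rpn2, which with Rpn1 forms the largest part of the scaffold, was at 50.0 and 44.4 RPKM against 46.1 and 46.3 RPKM, with an interval from -0.23 to 0.17. Rpn6, which clamps the regulatory particle to the core, had a log2 change of -0.01 and overlapping groups as well.

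**Figure D3:**
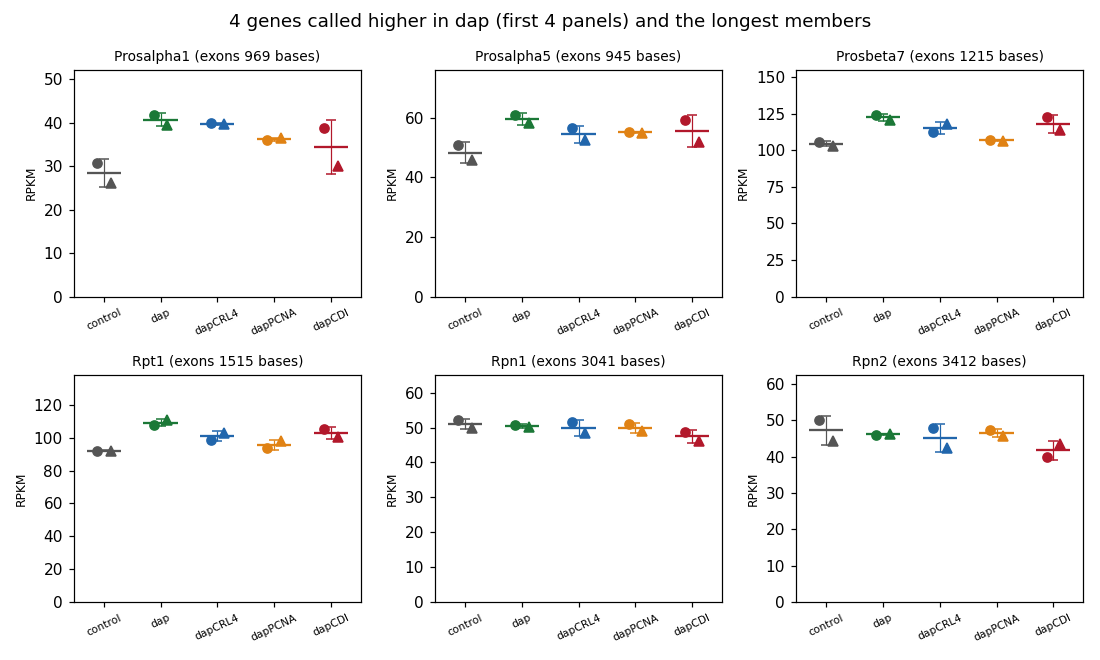
RPKM of the 4 genes called higher in dap and of Rpn1 and Rpn2, the longest of the 28, in every library; horizontal lines are means and bars SD (n = 2), and each axis starts at 0. In the first 4 panels both dap libraries lie above both control libraries, and for Rpn1 and Rpn2 they overlap.

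The size of the change followed the exon length of the gene. Rpn1, with 3041 bases of exon, and Rpn2, with 3412, are the longest of the 28, and Rpn6, with 1945, is the next. The change of Rpn6, -0.01, lay below 0.11, the median of tested genes in the bin around 1901 bases. After the correction for length it was -0.12, the lowest of the 28 (limma adjusted p = 0.303). The called genes have 945 (Prosalpha5), 969 (Prosalpha1), 1215 (Prosbeta7) and 1515 (Rpt1) bases. Over the 28 genes, measured in the same libraries, the Spearman correlation of log2 change with exon length was -0.67 for dap. For dapCRL4, dapPCNA and dapCDI, set against the same control libraries, it was -0.61, -0.56 and -0.61. Over the 10264 tested genes with a length, the values were -0.57, -0.30, -0.22 and -0.55. Differences between the replicates of 1 genotype went with exon length too. Over tested genes, the Spearman correlation of length with replicate 1 minus replicate 2 was 0.03 in control, 0.34 in dap and 0.34 in dapCRL4. It was 0.27 in dapPCNA and -0.45 in dapCDI.

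Proteasome genes are short: the median exon length was 1211.5 bases, against 2007.5 for all tested genes. Median lengths were 973 bases for alpha and 989 for beta genes, 1515 for Rpt and 1755 for Rpn genes. The median log2 changes in dap were 0.24, 0.26, 0.25 and 0.14 in the same order, so that the Rpn genes were both the longest subgroup and the least changed. When each library was corrected for the relation of level to exon length over all genes, the median log2 change of the 28 genes in dap became 0.02 and 0 were called, against 3.37% of tested genes in either direction. With this correction 0 were called in dapCRL4, dapPCNA or dapCDI as well, where 2.09%, 1.97% and 3.42% of tested genes were. Prosalpha1 kept the widest change, 0.29 ± 0.09 on the log2 scale (SE), with a limma adjusted p of 0.102. Whether the relation to length arose in the embryos, the RNA or the libraries was not tested.

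**Figure D4:**
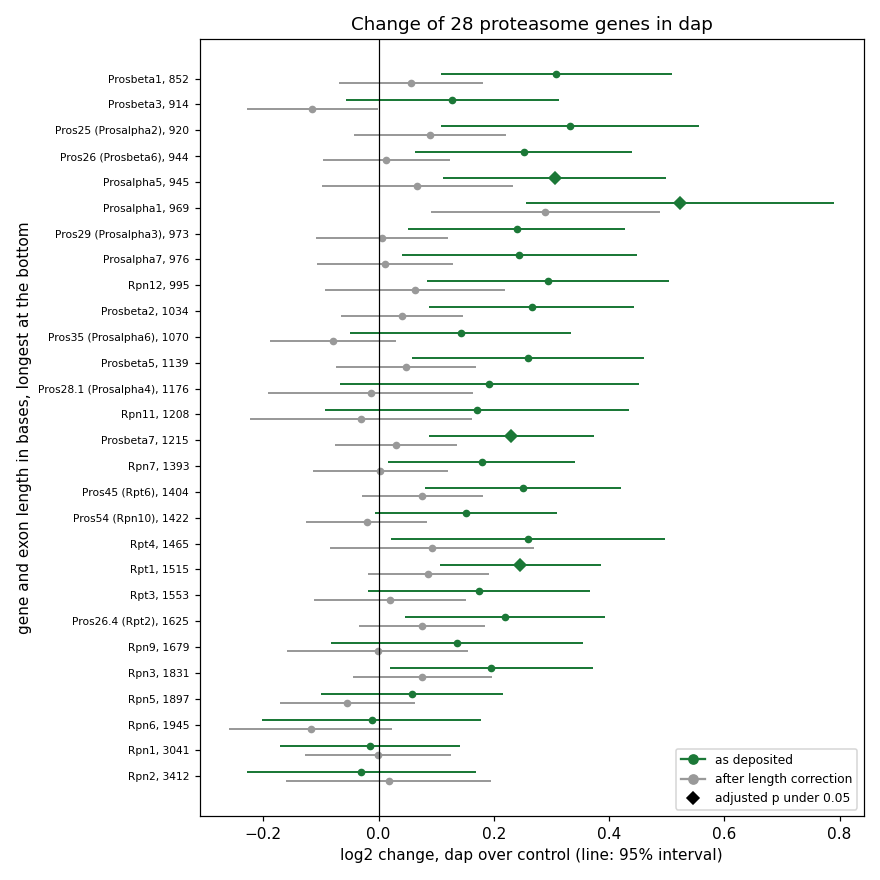
Log2 change of each of the 28 genes in dap over control with its 95% interval, ordered by exon length (longest at the bottom), as deposited (green) and after correction for exon length (grey); diamonds mark limma adjusted p under 0.05. The deposited changes run from 0.52 for Prosalpha1 to -0.03 for Rpn2, and the corrected ones lie around 0 with a median of 0.02.

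The number of calls also rested on which libraries shared the estimate of spread. With 1 of the dapCDI libraries left out, though neither enters the means compared, 17 of the 28 genes were called higher in dap and 0 lower, against 14.8% of tested genes called higher. The same 17 genes were called whichever dapCDI library was left out, and they included all 4 of the full comparison. They were 6 of 7 alpha genes, 5 of 6 beta genes, 4 of 5 Rpt genes and 2 of 10 Rpn genes (Rpn3 and Rpn12). With the correction for length, 0 were called without replicate 1 or replicate 2 of dapCDI, where 5.71% and 5.74% of tested genes were. Leaving out 1 control library or 1 dap library, whichever it was, left 0 of the 28 called. The share of all tested genes called in either direction was then 1.86% and 0.654% without control replicate 1 or 2 and 9.2% and 0.702% without dap replicate 1 or 2.

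Expression of dapCRL4 was compared with the same control to ask what a stabilized form did. Of the 28 genes 0 were called, where 1.45% of tested genes were, and 5 had an unadjusted p under 0.05, as 16.1% of tested genes did. The median log2 change was 0.13, against 0.04 over all tested genes, and 21 genes had both dapCRL4 libraries above both control libraries (33.5% of tested genes did). Prosalpha1 again showed the widest difference, at 39.9 and 39.6 RPKM in dapCRL4, above both control libraries. Its log2 change was 0.49 (95% interval 0.23 to 0.76; limma adjusted p = 0.0841), and 0.39 after the correction for length (limma adjusted p = 0.0622).

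The alpha ring gene Pros28.1 (Prosalpha4) gave 51.5 and 50.1 RPKM in the control libraries, 62.3 and 63.3 RPKM in those of dapCRL4 and 60.1 and 56.1 RPKM in those of dap. The dapCRL4 libraries were the higher ones without overlap with either, and the log2 change over control was 0.31 (limma adjusted p = 0.239). Prosalpha1 and Pros28.1 were called higher when dapCDI replicate 1 was left out (limma adjusted p = 0.0213 and 0.0333), where 2.17% of tested genes were. The same held without replicate 2 (limma adjusted p = 0.0209 and 0.0326), where 2.19% were. Prosbeta2 followed with 103 and 108 RPKM in dapCRL4 and a log2 change of 0.22 (limma adjusted p = 0.219).

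In dapPCNA the proteasome genes were nearest to the control. Of the 28 genes 0 were called, where 1.3% of tested genes were, and 2 had an unadjusted p under 0.05, as 11.3% of tested genes did. The median log2 change was 0.04, against 0.00 over all tested genes, and 15 genes lay above and 1 below the control without overlap (25.1% and 24% of tested genes). Prosalpha1, at 36.0 and 36.4 RPKM, had the widest difference here too, with a log2 change of 0.36 (95% interval 0.09 to 0.62; limma adjusted p = 0.260). Pros28.1 and Prosbeta1 both had a log2 change of 0.20, with limma adjusted p of 0.580 and 0.446.

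In dapCDI 0 of the 28 genes were called, where 7.56% of tested genes were, and 11 had an unadjusted p under 0.05, as 31.2% of tested genes did. The median log2 change was 0.18, against 0.04 over all tested genes, and 15 genes lay above and 2 below the control without overlap (32.5% and 26.6% of tested genes). Prosbeta1 was at 84.5 and 69.9 RPKM, both above the control, with a log2 change of 0.29 (95% interval 0.10 to 0.49; limma adjusted p = 0.0659). Prosbeta5 was at 89.4 and 75.1 RPKM and Prosbeta2 at 114.8 and 98.7 RPKM. In all 3 proteolytic subunits replicate 1 was the higher library, and replicate 2 lay nearer to the control and still above it.

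The dapCDI result differed by library. With replicate 1 alone in the group, 19 of the 28 genes were called higher, where 16.4% of tested genes were, and the median log2 change was 0.29. With replicate 2 alone, 0 were called, where 0.798% of tested genes were in either direction, and the median was 0.05. Rpn2 was at 39.9 and 43.6 RPKM in dapCDI, below both control libraries, with a log2 change of -0.18 (limma adjusted p = 0.203). Each of these fits assumes that the lone library varies like those of the other groups. After the correction for length the median difference between the dapCDI replicates over the 28 genes was 0.06 on the log2 scale, and the median change over control was 0.01.

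**Figure D5:**
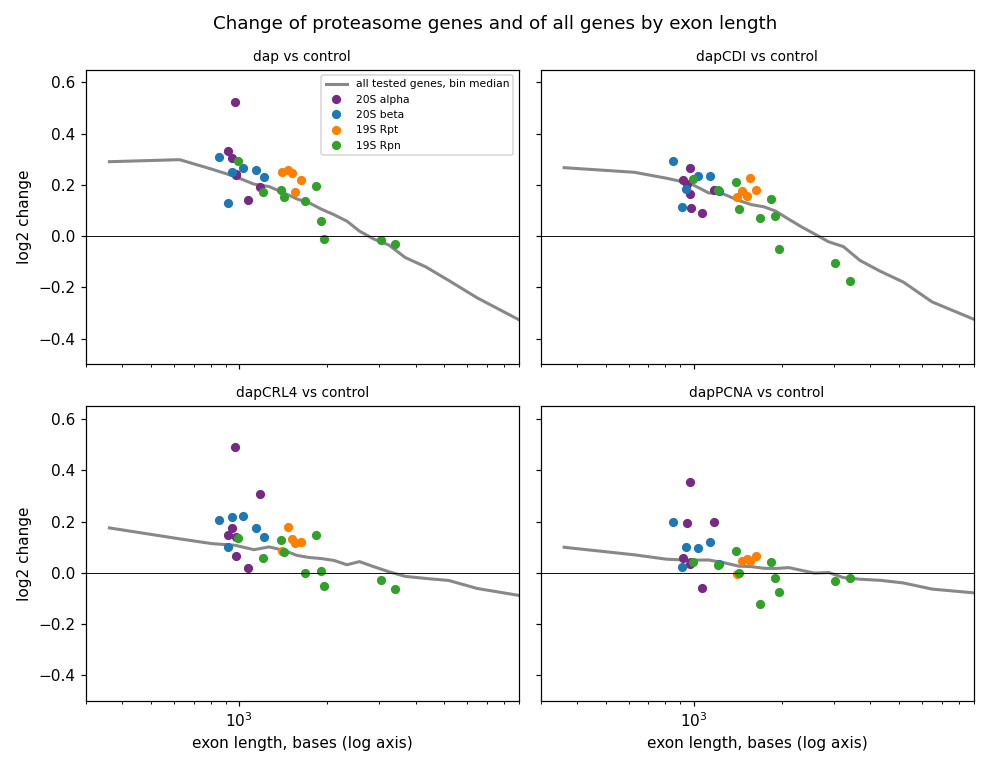
Log2 change over control against exon length in bases (log axis) for the 28 genes, coloured by subgroup, in each of 4 genotypes; the grey line is the median of all tested genes in bins of length. In dap the points run from 0.31 for Prosbeta1, the shortest, to -0.01 for Rpn1 and -0.03 for Rpn2. Prosalpha1 lies above the line, at 0.52, and others, such as Prosbeta3 at 0.13 and Rpn6 at -0.01, lie below it.

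The altered forms were set against wild-type dap to ask whether they differ from it, and these comparisons share the dap libraries. In dapCRL4 against dap 0 of the 28 were called (0.164% of tested genes were), with a median log2 change of -0.08 and 0 genes at an unadjusted p under 0.05 (14.7% of tested genes). Both dapCRL4 libraries lay below both dap libraries in 17 of the 28 and above them in 1, as in 29.4% and 20.6% of tested genes. In dapCDI against dap 0 were called (0.144% of tested genes), with a median of -0.05 and again 0 at an unadjusted p under 0.05 (10.4%). Both dapCDI libraries lay below both dap libraries in 4 and above them in 0, as in 19.5% and 13% of tested genes. In dapPCNA against dap 0 were called (1.33% of tested genes), 9 had an unadjusted p under 0.05, all lower (15.5% of tested genes were lower at that threshold), and the median was -0.15. In 24 of the 28 both dapPCNA libraries lay below both dap libraries, as they did in 38.1% of tested genes.

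Among these genes Pros25 (Prosalpha2), of the alpha ring, was at 99.6 and 94.98 RPKM in dap and at 78.9 and 82.2 RPKM in dapPCNA. The dap libraries were the higher ones, with a log2 change of -0.27 in dapPCNA over dap (95% interval -0.50 to -0.05; limma adjusted p = 0.147). Pros45 (Rpt6) was at 128 and 130.3 RPKM in dap and at 107 and 110.1 RPKM in dapPCNA, a log2 change of -0.25 (limma adjusted p = 0.107). Rpn9, a scaffold subunit, was at 73.1 and 72.8 RPKM against 59.6 and 62.5 RPKM, a log2 change of -0.26 (limma adjusted p = 0.156). Without dapCDI replicate 1 or replicate 2, Pros25 and Pros45 were called lower, where 5.07% and 5.2% of tested genes were. After the correction for length the median over the 28 genes in this comparison was -0.01.

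In a test of any difference among the 5 genotypes 0 of the 28 were called, where 3.09% of tested genes were, and 6 had an unadjusted p under 0.05, as 2926 of the 10396 tested genes did. The lowest was Prosalpha1 (limma adjusted p = 0.0963). Without dapCDI replicate 2 the count was 15, where 20.2% of tested genes were called, and without replicate 1 it was 3, where 6.81% were.

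The 5 subunits outside the name rule were called in none of these comparisons, and their median log2 change over control was 0.17 for dap, 0.07 for both dapCRL4 and dapPCNA, and 0.18 for dapCDI. CG17331 (Prosbeta4) gave 75.2 and 75.3 RPKM in the control libraries and 98.0 and 94.2 RPKM in the dap libraries, without overlap, with a log2 change of 0.35 (limma adjusted p = 0.0631), or 0.09 after the correction for length (limma adjusted p = 0.462). The 24 partner genes of the ubiquitin-proteasome pathway include Mov34 and CG13779 of these 5 subunits. They also include RpS27A and RpL40, which are counted again with the cytosolic ribosomal protein genes below. In dap 1 of the 24 was called higher (8.53% of tested genes were) and 0 lower (3.27%), with a median log2 change of 0.13. It was the polyubiquitin gene Ubi-p5E, at 438 and 388 RPKM in the control and 515 and 538 RPKM in dap, a log2 change of 0.35 (limma adjusted p = 0.0235).

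In dapCDI 1 partner was called lower and 0 higher, where 2.83% and 4.73% of tested genes were. Ubqn, whose product carries ubiquitinated proteins to the proteasome, gave 106 and 93.5 RPKM in the control libraries and 80.1 and 78.4 RPKM in those of dapCDI, a log2 change of -0.33 (limma adjusted p = 0.0473). In dapCRL4 and dapPCNA 0 of the 24 were called, where 1.45% and 1.3% of tested genes were. After the correction for length Ubi-p5E and Ubqn had limma adjusted p of 0.0554 and 0.0513. The transcription factor cnc, the fly relative of the factors that induce proteasome genes in mammals, gave 33.3 and 31.8 RPKM in the control libraries and 29.0 and 23.4 RPKM in the dap libraries (log2 change -0.32, limma adjusted p = 0.0852). For its binding partner maf-S the values were 202 and 195 RPKM against 233 and 237 RPKM. Corrected for length, the log2 changes of cnc and maf-S in dap were -0.0044 and -0.05 (limma adjusted p = 0.970 and 0.582).

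Genes of the ribosome, another large complex, gave a measure of how common such shifts were. In dap 4 of 89 cytosolic ribosomal protein genes and 35 of 73 mitochondrial ones were called higher and 0 lower. Of all tested genes 8.53% were called higher and 3.27% lower. The median log2 changes of the 2 lists were 0.18 and 0.35. In dapCDI 2 and 22 were called higher, where 4.73% of tested genes were, with medians of 0.13 and 0.32. After the correction for length 0 of either list were called in dap (3.37% of tested genes were), with medians of -0.07 and 0.09.

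Levels of markers of other cell types also differed between the groups. The summed level of 4 neuron markers was 238 to 241 RPKM in the control, 162 to 217 in dap and 151 to 193 in dapCDI. It was below the control with the remaining transgenes too, at 202 to 212 RPKM for dap[PCNA] and 193 to 232 RPKM for dap[CRL4]. The sums of markers were not corrected for length. The neuron markers elav, brp and Syt1 have 10715, 13371 and 7190 bases of exon, and n-syb was not matched to a length. In the bins around 6503 and 9948.5 bases, tested genes had median log2 changes of -0.24 and -0.35 in dap and -0.26 and -0.34 in dapCDI. Of the 4 neuron markers only elav was called, lower in dapCDI, where 2.83% of tested genes were called lower. The 3 hemocyte markers summed to 115.2 to 139 RPKM in the control and 88.5 to 92.5 in dap. There srp and Pxn were called lower, as 3.27% of tested genes were. The other marker, Hml, was at 0.0393 to 0.111 RPKM over the libraries, too low to be tested or to add much to the sums. Hemocyte sums with the altered forms were also below both control libraries. They were 108.4 to 114.8 RPKM for dap[PCNA], 109.5 to 109.6 RPKM for dap[CRL4] and 113.4 RPKM in each dap[CDI] library. The 4 muscle markers summed to 7897 to 8758 RPKM in the control and 7487 to 8685 in dap. Mhc was called lower in dap, as 3.27% of tested genes were. Muscle sums lay above both control libraries for dap[PCNA], at 8888 to 9258 RPKM, and for dap[CDI], at 9598.5 to 10457 RPKM. For dap[CRL4] they overlapped the control, at 8403 to 8919 RPKM. Mlc2 was called higher in dapCDI, as 4.73% of tested genes were. None of these calls held after the correction for length: the log2 changes were -0.48 for elav, -0.24 for srp, -0.31 for Pxn, -0.0019 for Mhc and 0.35 for Mlc2. Their limma adjusted p were 0.0716, 0.155, 0.196, 0.995 and 0.0964 in that order.

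Of 8 heat shock genes, which respond to misfolded protein as proteasome genes can, 2 were called lower in dap and 0 higher. Of all tested genes 3.27% were called lower and 8.53% higher. The 2 were Hsp27, with a log2 change of -1.64, and Hsp83, with -0.75 (limma adjusted p = 0.0241 and 0.0336). With the length correction Hsp27 was still called (limma adjusted p = 0.0332) and Hsp83 was not (limma adjusted p = 0.0561). The list summed to between 2689 and 4306 RPKM in the control, between 1172 and 1927 RPKM with dap and between 1158 and 2350 RPKM with dap[CRL4]. With dap[PCNA] and dap[CDI] the sums lay between 2407 and 3148 RPKM and between 1952 and 3567 RPKM. The part of these lists in the proteasome values was not tested.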

How the data were processed

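The data are 1 table of expression values deposited by the authors, for 10 libraries of polyadenylated embryo RNA read as single reads of 50 bases, 20700000 to 43400000 per sample per the labels. Values are log2 RPKM per the file headers, normalized by the authors, and the deposited floor of -9.109 was read as 0 RPKM. The genome build was BDGP 6 per the submitters' processing notes. For the aligner, the counter, the annotation and the use of strand, the sources used here name nothing. Of the 28 canonical genes, 11 share exon bases with a gene on the opposite strand, at most 264 bases.

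The log2 values were tested with limma 3.58.1 in R 4.3.3, with 1 mean per genotype, a mean-variance trend and Benjamini-Hochberg adjustment over 10396 genes at 1 RPKM or more in at least 2 libraries. A gene was called at an adjusted p under 0.05. The fit was tested on simulated data. The labels say that samples were independent but not what was separate, so p-values measure the spread between these samples. Fold changes in text are ratios of mean RPKM. Exon length (merged exons, Ensembl release 115) entered as a lowess correction of each library's deviations, span 0.3. Members were matched by name, and genes outside the rule by the name given. Named genes were the highest and lowest of each subgroup, those called, otherwise the 3 largest changes without overlap, and the proteolytic and ubiquitin-handling subunits. cnc, maf-S, CG17331 and the genes Rpn1, Rpn2 and Rpn6 in dap were picked with their values known. The members and lists were chosen with earlier results of these data known. Same-numbered samples did not deviate together (correlations of -0.05 to 0.09). Counting depth was estimated from whole-read steps at a tolerance of 0.01. Alternatives are named in the closing section.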

Additional observations from a re-analysis of the deposited data

How the results depend on the processing

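The 22 pairs of a gene and a comparison recomputed in full were picked from these data, as called genes or the largest changes without overlap. Because the libraries compared did not overlap in any pair, leaving out 1 library could not change the sign. Over all alternatives, 0 changed sign, which for most of them was fixed by that choice. Among other changes given for dap, those of Pros54, Rpn11 and Rpn2 turned to -0.02, -0.03 and 0.02 with the correction for length, as did maf-S, to -0.05. Without control replicate 1 the changes of Rpn1, Rpn2 and Rpn6 turned to 0.02, 0.06 and 0.06, and without dap replicate 2 that of Rpn6 to 0.04. In dap the count of 4 became 5 with log2(RPKM + 1) or median centring, where 1318 and 1325 of the 10396 tested genes were called. It became 6 when only the groups compared were fitted (1182 genes called) and 1 with quantile normalization (1353). With no filter on low values it was 1 of 41 members (292 of 15422 genes). It was 0 without a mean-variance trend (193 genes) and 2 with the replicate number as a block, the replicate block (889). With the correction for exon length it was 0, where 346 of 10264 genes were called. It stayed 0 when the replicate block was added (317 genes) or 1 dapCDI library was left out (586 and 589). It ran from 0 to 17 when each library was left out in turn, as 0 for each control or dap library, 1 for each dapCRL4 or dapPCNA library and 17 for each dapCDI library, while the count over all 10396 tested genes ran from 68 to 2225. The correction for length moved the median log2 change from 0.22 to 0.018 in dap, from 0.13 to 0.041 in dapCRL4, from 0.18 to 0.0084 in dapCDI and from -0.15 to -0.013 in dapPCNA against dap, with and without the replicate block. It turned the median from -0.08 to 0.0069 in dapCRL4 against dap and from 0.04 to -0.00066 in dapPCNA. With it and without dapCDI replicate 1 or 2 the dapCDI median was -0.027 or 0.033, and the others were 0.019 and 0.018 (dap), 0.041 (dapCRL4), 0.0071 and 0.0070 (dapCRL4 against dap) and -0.013 (dapPCNA against dap). In dapCRL4 1 gene, Prosalpha1, was called with the length correction and the replicate block (limma adjusted p = 0.0261) or with the length correction and 1 dapCDI library left out, and 0 to 2 when each library was left out. Leaving out each library gave 0 to 19 called and a median of 0.045 to 0.29 in dapCDI, 0 to 2 called in dapPCNA against dap, a median of -0.15 to 0.064 in dapCDI against dap, and 0 to 15 called among the 5 genotypes. The cause was not tested. The replicate numbers were not shown to mark shared origin, and the replicate block moved the number of all genes called in dap from 1227 to 889. The alternatives with length correction and without a dapCDI library were chosen after seeing the data.

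Of the genes called in dap, Prosalpha1 had limma adjusted p up to 0.175, Rpt1 up to 0.327, Prosalpha5 up to 0.641 and Prosbeta7 up to 0.776 over the alternatives, the last 3 of these after the correction for length. With 2 libraries per genotype, changes below the width of the intervals, a median of 0.19 to either side on the log2 scale, could not be resolved for most genes.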

Other observations

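Copies of proteasome genes that carry other names in the table were at or near 0, apart from CG30382. CG31742 (Prosbeta5R2) was above 0 in 1 library and CG6789 (Rpn13R) in 4, each at no more than 0.0601 RPKM. The marker lists not described with the comparisons had 0 genes called in dap, dapCRL4, dapPCNA or dapCDI against control. Of all tested genes 11.8%, 1.45%, 1.3% and 7.56% were called in either direction, in that order. Tested were 3 of 3 glia and 4 of 4 neuroblast markers, but only 2 of 4 germ cell and 1 of 4 male germ line markers. The 3 glia markers summed to 93.6 to 95.05 RPKM in the control and to 94.1 to 105 RPKM over the other genotypes. Only the glia sums of dapCRL4, 98.4 to 98.9 RPKM, lay above both control libraries without overlap. The 4 neuroblast markers summed to 65.6 to 69.3 RPKM in the control. Their sums lay above it in dapCRL4, at 78.8 to 82.8 RPKM, and dapPCNA, at 77.5 to 79.9 RPKM. In dap, at 65.4 to 74.6 RPKM, and dapCDI, at 69.1 to 70.4 RPKM, they overlapped it. The 4 germ cell markers summed to 7.07 to 7.53 RPKM in the control. Their sums lay above it in dap (8.39 to 8.65 RPKM), dapCRL4 (8.40 to 8.45 RPKM) and dapPCNA (9.52 to 10.5 RPKM). In dapCDI, at 7.22 to 9.36 RPKM, they overlapped it.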
